A study of Mus musculus with 12 samples.

Results

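The genes described here are 38 extracellular matrix and fibroblast genes of the mouse heart, out of 55401 gene IDs listed in each library. They were taken by name: 5 chains of fibrillar collagens, 8 basement membrane genes, 4 chains of other collagens, 3 small leucine-rich proteoglycans, 5 matrix glycoproteins, 4 matricellular or secreted proteins, 6 genes of matrix processing and remodelling, and Pdgfra, Tcf21 and Gsn as fibroblast or connective tissue genes. All 38 were found among the gene IDs, 37 had at least 1 count, and 36 passed the filter on low counts. Tcf21, a transcription factor of cardiac fibroblasts, was listed at 0 in all 12 libraries. Dpt (dermatopontin) had 59 counts in all and did not pass the filter. The study compared adult hearts of wild-type mice (WT) with hearts of Rpl3l-/- mice (KO), which lack a ribosomal protein of striated muscle that is a paralogue of the general ribosomal protein Rpl3. For each genotype, the RNA bound to ribosomes pulled down with an anti-HA antibody (IP) and the total RNA of heart homogenate (Input) were sequenced as nanopore direct cDNA, with 3 biological replicates in each of the 4 groups: WT Input, KO Input, WT IP and KO IP. Hearts for the pulldown were exposed to cycloheximide, which arrests elongating ribosomes, when they were excised. IP RNA was purified with RNeasy columns and Input RNA with TRIzol, so fraction and purification cannot be told apart, and the labels do not give which cells carry the HA tag, the exact age or the sex of the adult animals, or whether an Input and an IP library came from the same heart.

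The cardiac extracellular matrix is a network of fibrillar collagens between muscle bundles and of basement membrane around each muscle cell and vessel. Resident fibroblasts secrete most of the fibrillar collagen and proteoglycan, while endothelial cells, smooth muscle cells and cardiomyocytes add much of the basement membrane. Secreted matrix proteins are made on ribosomes of the endoplasmic reticulum, and a level in IP relative to Input describes how much of a gene's RNA was recovered with tagged ribosomes in comparison with other genes of the same library.

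Library totals ran from 169359 counts (KO Input replicate 3) to 710868, so that 3 counts stood for 4.22 to 17.7 CPM (counts scaled to a common library size). Rpl3l itself was lower in KO, with a log2 fold change of -2.46 (SE 0.27) in Input and -5.84 (SE 0.33) in IP, and Rpl3 was higher, by 0.95 (SE 0.17) and 1.35 (SE 0.18), each with an adjusted p of at most 0.0102 (edgeR quasi-likelihood test). Cardiomyocyte markers summed to between 65485 and 76038 CPM in every library, with 9 of 10 detected and Actc1 listed at 0. Globin genes took from 1.70% to 17.2% of the counts of a library, the highest shares being those of WT IP replicate 2 and WT Input replicate 3. In these bulk samples, fewer cells of a type and less RNA per cell cannot be told apart.

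The sequence around the start codon is shown for 4 of the 5 fibrillar collagen genes, because the 5′ end of the type I collagen RNAs is known to fold into a stem-loop around it that is bound by the RNA-binding protein LARP6. Each line gives 12 bases before the ATG, the ATG and 6 bases after it, read 5′ to 3′ from the GENCODE M21 annotation of build GRCm38. Capitals mark the ATG, the base 3 before it and the base next after it, which are the positions of the vertebrate start-site (Kozak) pattern that matter most for initiation.
Col1a1: tagggtctaGacATGTtcagc
Col1a2: taagtggtaGacATGCtcagc
Col5a2: tcatatttaGacATGAtggca
Col5a1: caccccgccGgcATGGacgta
The start codons lie at chr11:94936369-94936371 (plus strand), chr6:4505840-4505842 (plus), chr1:45502912-45502914 (minus) and chr2:27886816-27886818 (plus), in the same order. The letters TAGACATG, with the ATG at the start codon, were present in Col1a1, Col1a2 and Col5a2 but not in Col5a1, and in 9 of the 6374 tested genes with such a window (0.141%).

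The same windows are given for the 6 genes that were higher in IP than in Input in both genotypes, which are described further on.
Bgn: ggaacattgAccATGTgtccc
Col4a2: aagactgggAtcATGGaccga
Col8a1: agcctaaatGtgATGGctgtg
Fstl1: gacccgagcAcgATGTggaaa
Lamc1: gcgcgcagcGggATGAcgggc
Sparc: gttcccagcAtcATGAgggcc
These start codons lie at chrX:73490790-73490792 (plus), chr8:11313464-11313466 (plus), chr16:57632636-57632638 (minus), chr16:37777294-37777296 (plus), chr1:153332537-153332539 (minus) and chr11:55409982-55409984 (minus). All 6 had a purine (A or G) 3 bases before the ATG, as did 37 of the 38 matrix genes (97.4%) and 88.4% of all tested genes with a window. Col6a2 was the exception among the 38. A G next after the ATG was present in 12 of the 38 genes (31.6%) and in 52.8% of all tested genes, and 4 of the 10 members called higher in IP in at least 1 genotype had it. The 38 genes encode longer proteins than most, with a median coding length of 3092 bases beside 1245 bases for all tested genes with a window.

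The 38 genes together took less than 1% of the counts of each library. Their summed share was 0.578%, 0.577% and 0.586% in WT Input, 0.645%, 0.604% and 0.730% in KO Input, 0.729%, 0.618% and 0.832% in WT IP, and 0.908%, 0.851% and 0.912% in KO IP. The KO libraries lay above the WT libraries of the same fraction in these raw shares. That order did not hold for Input with globin genes left out of the totals, where the shares were 0.613%, 0.587% and 0.680% in WT and 0.670%, 0.631% and 0.743% in KO. Without Sparc, Sparcl1, Mgp, Gsn and Timp3, which other heart cells also make, the mean shares were 0.310%, 0.350%, 0.423% and 0.504% in WT Input, KO Input, WT IP and KO IP, and the genotypes overlapped in both fractions. Scaled by trimmed mean of M values (TMM), which is not set by a few abundant genes, the summed levels were 6052 to 7016 CPM in WT Input, 6737 to 7144 in KO Input, 7249 to 8045 in WT IP and 7916 to 9402 in KO IP. On that scale the genotypes overlapped in both fractions, while the IP libraries of each genotype lay above its Input libraries. A handful of genes dominated the sum: Gsn, Dcn, Mgp and Sparc held 51.2% of the 40990 counts on the 38 genes, and between 48.7% and 54.5% in every library.

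**Figure D1:**
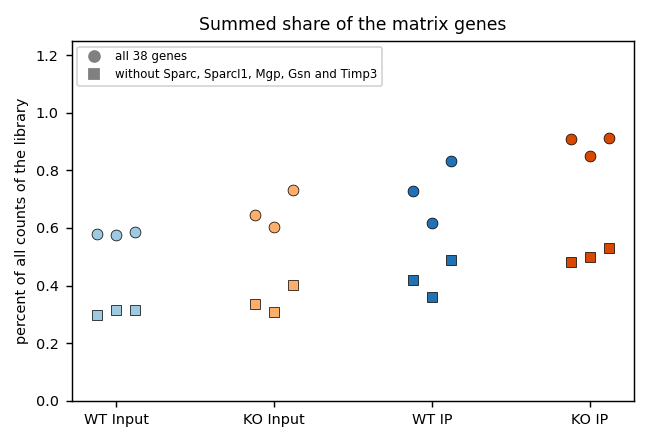
Share of each library's counts that fell on the matrix genes (vertical axis, percent), by group (horizontal axis), 1 point per library. Circles are all 38 genes, which ran from 0.577% to 0.912%, and squares leave out Sparc, Sparcl1, Mgp, Gsn and Timp3.

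The tested members were on balance higher in the ribosome pulldown than in total RNA, in both genotypes. Some other lists, described further on, had similar medians, such as other fibroblast markers (0.34 in WT, 0.39 in KO) and TGF-beta pathway genes (0.45, 0.39). Other matrix genes had medians of 0.02 in WT and -0.04 in KO. In WT hearts 7 of the 36 tested members were higher in IP and 1 was lower at an adjusted p under 0.05 (edgeR quasi-likelihood test, Benjamini-Hochberg over 6596 genes), or 22.2% of them, beside 14% of all tested genes. By direction, 19.4% of the members were higher beside 5.37% of all genes, and 2.78% were lower beside 8.67%. In KO hearts 9 were higher and 2 lower, 30.6% of the members beside 16.4% of all genes, with 25% higher beside 6.64% and 5.56% lower beside 9.78%. The median log2 difference of the members was 0.35 in WT and 0.39 in KO, where the median of all tested genes was 0.02 and 0.01, and 27 and 29 of the 36 estimates were above 0. No test was made of the members as a list. Leaving out WT IP replicate 2, WT Input replicate 2 or WT Input replicate 3 left 5 members called in WT in each case. In KO, 5 were called without KO Input replicate 1, 7 without KO IP replicate 1, KO IP replicate 3 or KO Input replicate 2, and 7 with the DESeq2 test.

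Transcript length moved with the difference between fractions: over all tested genes with a length, Spearman's rho between length and the log2 difference was 0.298 in WT and 0.343 in KO (6591 genes), while over the 36 members it was -0.189 and 0.056. With the trend with length removed, the median of the members was 0.27 in WT and 0.20 in KO. Genes share their libraries, so these correlations only describe them.

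**Figure D2:**
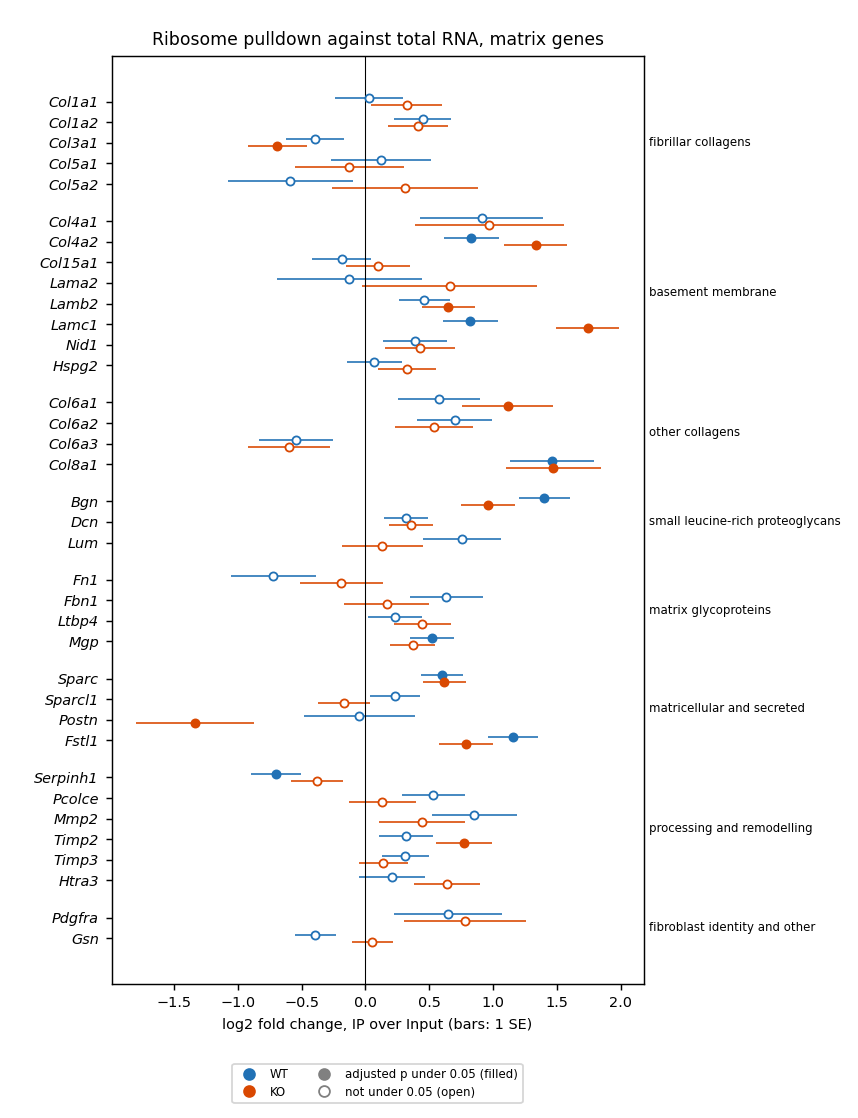
Log2 fold change between IP and Input for each of the 36 tested matrix genes (horizontal axis, bars 1 SE), grouped by role, in WT (blue) and KO (red). Filled points had an adjusted p under 0.05, and the 6 genes filled on the right in both genotypes were Bgn, Col4a2, Col8a1, Fstl1, Lamc1 and Sparc.

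Fibrillar collagens are the load-bearing fibres of the heart. Of the 5 chains, 0 were called higher in IP in either genotype, beside 5.37% of all genes in WT and 6.64% in KO. In KO 1 was called lower, beside 9.78% of all genes. Col3a1, the chain of type III collagen, had 247, 150.4 and 191 CPM in WT Input, 343, 239 and 199 in KO Input, 132, 122 and 195 in WT IP, and 161, 144 and 186 in KO IP. Its KO IP libraries all lay below its KO Input libraries, whereas in WT the fractions overlapped. The log2 difference was -0.69 (SE 0.23, adjusted p = 0.0404) in KO and -0.40 (SE 0.23, adjusted p = 0.263) in WT. The KO call was lost without any single KO IP library and without KO Input replicate 1 or 2, with adjusted p between 0.0583 (without KO IP replicate 3) and 0.322 (without KO Input replicate 1), and under library totals, no count filter and the DESeq2 test. Col1a1 and Col1a2, which form the type I collagen trimer, ranged from 57.3 to 142 CPM and from 88.6 to 224 CPM over the 12 libraries. Their log2 differences between IP and Input were 0.03 and 0.45 in WT and 0.32 and 0.41 in KO, none past the threshold, although the WT IP libraries of Col1a2 all lay above its WT Input libraries. Col5a1 and Col5a2, minor chains that help to set the fibre diameter, had at most 21 and 22 counts in a library, and their estimates had SE between 0.39 and 0.58.

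Among basement membrane genes, a laminin chain and a type IV collagen chain were higher in IP in both genotypes. Of 8 genes, 2 were called higher in IP in WT and 3 in KO, beside 5.37% and 6.64% of all tested genes. None was called lower, beside 8.67% and 9.78%. All 8 estimates were above 0 in KO, as were 29 of the 36 members and 3322 of the 6596 tested genes. Lamc1, the gamma1 chain shared by most laminins, had 69.8, 74.0 and 80.6 CPM in WT Input and 60.9, 42.4 and 68.2 in KO Input. In IP it had 115, 149 and 132 CPM in WT and 231, 170.1 and 169.5 in KO. Every IP library lay above every Input library. Lamc1 differed on the log2 scale by 0.82 (SE 0.22, adjusted p = 0.0121) in WT and 1.74 (SE 0.25, adjusted p = 1.71e-05) in KO, the latter a fold of 3.35. The KO call held in all 16 alternatives, while the WT call was lost without WT IP replicate 2 (adjusted p = 0.0599), without WT Input replicate 1 (0.0662) and with the length trend removed (0.0874), which is the highest of its 16 values.

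Col4a2 encodes a chain of type IV collagen, the sheet-forming collagen of basement membranes. Its levels were 139.6, 91.2 and 121 CPM in WT Input, 60.9, 116 and 62.5 in KO Input, 234, 179.9 and 209.5 in WT IP, and 179.7, 201 and 231 in KO IP. IP exceeded Input in every library of both genotypes, by 0.83 (SE 0.21, adjusted p = 0.00977) in WT and 1.33 (SE 0.25, adjusted p = 0.000459) in KO on the log2 scale. The WT call was lost without WT IP replicate 1 (adjusted p = 0.0566), without WT Input replicate 2 (0.0902, the highest of 16 alternatives) and with the length trend removed (0.0556). Col4a1, its partner chain, was read from the opposite strand at the same locus on chromosome 8 and shares 22 exon bases with Col4a2. It had 1 to 45 counts in a library, and its log2 differences of 0.91 (SE 0.48) and 0.97 (SE 0.58) had adjusted p of 0.226 and 0.280. The sources used here do not state how reads in the shared bases were assigned or whether strand was used.

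Lamb2, the beta2 laminin chain, had 162, 195 and 188 CPM in WT Input, 164, 196 and 188 in KO Input, 212, 302 and 238 in WT IP, and 376, 234 and 258 in KO IP. The fractions did not overlap in either genotype. Its log2 difference was 0.65 (SE 0.21, adjusted p = 0.0349) in KO and 0.46 (SE 0.20, adjusted p = 0.125) in WT. The KO call was lost without KO IP replicate 1 (adjusted p = 0.16), without any single KO Input library (0.0617 to 0.142), under the DESeq2 and limma-voom tests and with the length trend removed (0.259, the highest of 16 alternatives). Per kilobase of longest transcript, Lamb2 was 3.14 to 6.28 times Lamc1 in the 6 Input libraries and 1.86 to 2.74 times in the 6 IP libraries, a difference in ratio that was not tested. Hspg2, the heparan sulfate proteoglycan perlecan and the most counted basement membrane gene, had 145, 247 and 289 CPM in WT Input, 183, 270 and 193 in KO Input, 221, 255 and 231 in WT IP, and 334, 222 and 266 in KO IP. Fractions overlapped in both genotypes, and the log2 differences were 0.07 (SE 0.22) and 0.33 (SE 0.23). Nid1 (nidogen, a linker of laminin and type IV collagen), Col15a1 and Lama2 (the alpha chain of muscle laminin) were not called, with estimates from -0.19 to 0.66.

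Among the other collagens, Col8a1 had the largest difference. This short-chain collagen of vessel walls and remodelling tissue had 24.9, 22.2 and 13.4 CPM in WT Input, 22.8, 15.4 and 22.7 in KO Input, 59.2, 44.5 and 68.7 in WT IP, and 56.0, 57.6 and 54.9 in KO IP. The lowest IP library of each genotype stood above the highest Input library, at only 4 to 10 counts per Input library. Col8a1 differed on the log2 scale by 1.46 (SE 0.33, adjusted p = 0.00334) in WT and 1.47 (SE 0.37, adjusted p = 0.00748) in KO, folds of 2.75 and 2.77. In KO it was lost without KO Input replicate 2 (adjusted p = 0.0546) and under limma-voom (0.0597, the highest of 16 alternatives).

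The chains of type VI collagen, the beaded filaments that link cells to the matrix, did not share a direction. Col6a1 had 42.4, 34.5 and 26.9 CPM in WT Input, 34.3, 27.0 and 34.1 in KO Input, 71.1, 49.7 and 35.2 in WT IP, and 79.3, 57.6 and 71.5 in KO IP. It was higher in IP in all KO libraries, with a log2 difference of 1.11 (SE 0.36, adjusted p = 0.0322), and the WT estimate was 0.58 (SE 0.32, adjusted p = 0.250). The KO call was lost without any single KO library except KO IP replicate 2, with adjusted p from 0.0553 (without KO Input replicate 3) to 0.127 (without KO Input replicate 2), and under DESeq2, limma-voom and removal of the length trend. Col6a2 had 47.4, 34.5 and 47.0 CPM in WT Input, 45.7, 53.9 and 62.5 in KO Input, 54.8, 63.4 and 91.6 in WT IP, and 79.3, 61.5 and 93.1 in KO IP. Its log2 differences were 0.70 (SE 0.29, adjusted p = 0.115) in WT and 0.54 (SE 0.31, adjusted p = 0.253) in KO. Col6a3 had negative estimates, -0.54 (SE 0.29) and -0.60 (SE 0.32), neither past the threshold.

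Small leucine-rich proteoglycans bind collagen fibrils and growth factors, and Bgn (biglycan) gave the smallest p of all members in WT. It had 122, 111 and 154.5 CPM in WT Input, 179, 104 and 199 in KO Input, 299, 341 and 377 in WT IP, and 294, 303 and 324 in KO IP. The lowest of the 6 IP libraries, at 294 CPM, exceeded the highest Input library, at 199. IP exceeded Input on the log2 scale by 1.40 (SE 0.20, adjusted p = 1.86e-05) in WT and 0.96 (SE 0.21, adjusted p = 0.00218) in KO, folds of 2.64 and 1.94, and both calls held in all 16 alternatives. Dcn (decorin), the closest relative of Bgn, had 808, 801 and 890.1 CPM in WT Input, 941, 682 and 1256 in KO Input, 1007, 963 and 1150 in WT IP, and 1143, 1234 and 1280 in KO IP. Its differences were smaller, 0.32 (SE 0.17, adjusted p = 0.232) and 0.36 (SE 0.18, adjusted p = 0.176), and not past the threshold. The ratio of Bgn to Dcn per kilobase of longest transcript was 0.101 to 0.138 in Input and 0.179 to 0.257 in IP, with no overlap and not tested. This ratio and that of Lamb2 to Lamc1 reuse the levels behind the calls of Bgn and Lamc1. In the other pairs compared, the fractions overlapped: Col1a1 to Col1a2, Col4a2 to Col4a1, Col6a1 to Col6a2 and Sparc to Sparcl1. Lum (lumican) had estimates of 0.76 (SE 0.30, adjusted p = 0.0992) and 0.13 (SE 0.32, adjusted p = 0.824).

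Of the matrix glycoproteins, Mgp (matrix Gla protein, an inhibitor of calcification) was called in WT. Its levels were 499, 409 and 547 CPM in WT Input, 746, 516 and 597 in KO Input, 669, 713 and 706 in WT IP, and 1003, 727 and 686 in KO IP. WT fractions did not overlap and KO fractions did. The log2 difference was 0.52 (SE 0.17, adjusted p = 0.0435) in WT and 0.37 (SE 0.18, adjusted p = 0.157) in KO. The WT call was lost without any single WT library, with adjusted p from 0.0565 (without WT Input replicate 3) to 0.21 (without WT Input replicate 2). At 617 bases, its longest transcript was the shortest of the 38, and with the length trend removed the estimates were 1.02 and 0.92, both called. Fn1 (fibronectin), Fbn1 (fibrillin, the core of microfibrils) and Ltbp4 (which holds latent TGF-beta in the matrix) were not called. Fn1 had the lowest WT estimate of the members, -0.72 (SE 0.33, adjusted p = 0.154), and Fbn1 had 0.63 (SE 0.28, adjusted p = 0.145) in WT.

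Matricellular and secreted proteins did not share a direction. Fstl1, a secreted follistatin-like glycoprotein, had 97.2, 71.5 and 77.3 CPM in WT Input, 91.4, 92.4 and 102 in KO Input, 188, 171 and 192 in WT IP, and 159, 183 and 148 in KO IP. Every IP library was above every Input library. For Fstl1 the log2 difference was 1.16 (SE 0.19, adjusted p = 0.000159) in WT, held in all 16 alternatives, and 0.79 (SE 0.21, adjusted p = 0.0104) in KO, lost without KO Input replicate 1 (0.0515, the highest of 16). Sparc, a collagen-binding glycoprotein, had 496, 419 and 453 CPM in WT Input, 518, 458 and 358 in KO Input, 694, 668 and 713 in WT IP, and 793, 556 and 721 in KO IP. Its IP libraries lay above its Input libraries in both genotypes, by 0.60 (SE 0.16, adjusted p = 0.0146) and 0.62 (SE 0.17, adjusted p = 0.0131). These calls were lost without WT Input replicate 2 (adjusted p = 0.088) or 3 (0.0562) and without KO IP replicate 1 (0.0533) or KO Input replicate 3 (0.0588), the highest values over their 16 alternatives being 0.088 and 0.0588. Its relative Sparcl1 was not called, with 0.23 (SE 0.20) and -0.17 (SE 0.20).

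Postn (periostin), a marker of activated fibroblasts, was scarce and went the other way in KO. It had 22.4, 14.8 and 53.7 CPM in WT Input, 57.1, 27.0 and 56.8 in KO Input, 29.6, 22.3 and 31.7 in WT IP, and 25.7, 15.7 and 14.96 in KO IP, at 6 to 20 counts in a library. KO IP lay below KO Input, with its highest library just under the lowest Input one, and WT fractions overlapped. The log2 difference was -1.34 (SE 0.46, adjusted p = 0.0495) in KO and -0.05 (SE 0.44, adjusted p = 0.958) in WT. The KO call was kept in 5 of 14 alternatives and lost without KO IP replicate 2 (adjusted p = 0.144) or 3 (0.139), without KO Input replicate 1 (0.222, the highest) or 3 (0.138), and under both other scalings, DESeq2, no count filter and removal of the length trend. The difference between genotypes of the log2 IP to Input difference was -1.29 (SE 0.63, adjusted p = 0.714).

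**Figure D3:**
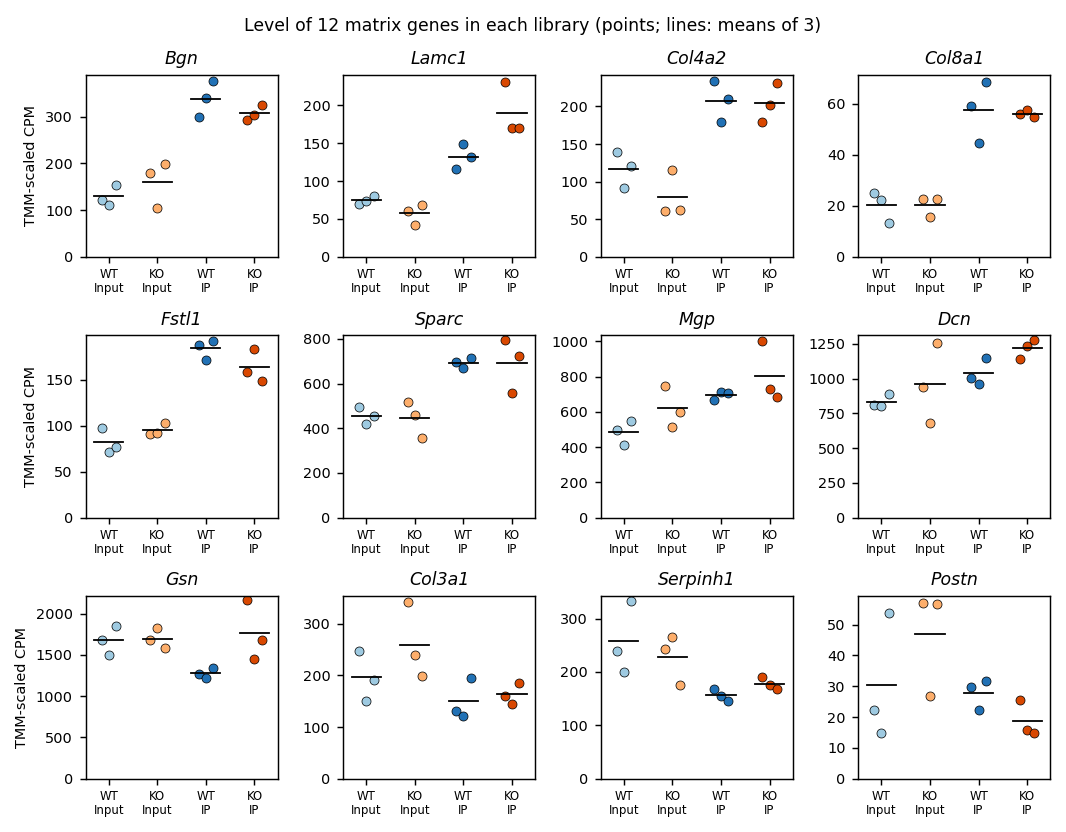
TMM-scaled level (vertical axis, CPM from 0) of 12 matrix genes in each library, by group (horizontal axis), with lines at the means of 3 libraries. For Bgn, Lamc1, Col4a2, Col8a1, Fstl1 and Sparc the IP points of each genotype lie above its Input points, and for Serpinh1 in WT and Col3a1 and Postn in KO they lie below.

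Of the 6 processing and remodelling genes, 5 had estimates above 0 in both genotypes, as did 27 (WT) and 29 (KO) of the 36 members. In WT 1 gene was called lower in IP, beside 8.67% of all genes. In KO 1 other gene was called higher, beside 6.64%. Serpinh1 (HSP47), the collagen-specific chaperone of the endoplasmic reticulum, had 239, 199.8 and 333 CPM in WT Input, 244, 266 and 176 in KO Input, 169, 154 and 146 in WT IP, and 191, 175 and 168 in KO IP. WT IP lay below WT Input in all libraries, and the KO fractions overlapped. The log2 difference was -0.70 (SE 0.19, adjusted p = 0.0161) in WT and -0.38 (SE 0.20, adjusted p = 0.216) in KO. The WT call was lost without WT IP replicate 2 (adjusted p = 0.0592) or 3 (0.0704) and without WT Input replicate 3 (0.139, the highest of 16 alternatives), whose level was the highest of its group. Timp2, an inhibitor of matrix metalloproteinases, had 122, 141 and 138 CPM in WT Input, 99.0, 150.2 and 165 in KO Input, 155, 183 and 160.2 in WT IP, and 257, 174 and 271 in KO IP. IP exceeded Input in both genotypes without overlap, by 0.77 (SE 0.22, adjusted p = 0.0167) in KO and 0.32 (SE 0.21, adjusted p = 0.337) in WT. The KO call was lost without KO IP replicate 3 (adjusted p = 0.0823) or KO Input replicate 1 (0.141, the highest of 16). Timp3, which binds to the matrix and was the most counted gene of the group, had 167, 158 and 158 CPM in WT Input, 194, 247 and 210.3 in KO Input, 195, 159 and 247 in WT IP, and 249.7, 224 and 248 in KO IP. Its fractions overlapped in both genotypes and its estimates were 0.31 (SE 0.19) and 0.14 (SE 0.19). Pcolce, an enhancer of procollagen cleavage, Mmp2, a gelatinase, and Htra3, a secreted serine protease, had estimates above 0 in both genotypes and were not called.

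Gsn (gelsolin), an actin-severing protein with a secreted form, had the most counts of the 38 genes. It had 1677, 1499 and 1854 CPM in WT Input, 1687, 1834 and 1580 in KO Input, 1266, 1216 and 1347 in WT IP, and 2166, 1455 and 1685 in KO IP. WT IP lay below every other group's libraries, and KO IP overlapped KO Input. For Gsn the log2 difference was -0.39 (SE 0.16, adjusted p = 0.107) in WT and 0.05 (SE 0.16, adjusted p = 0.869) in KO. In WT it passed the threshold with the stricter count filter (adjusted p = 0.0416) and with only the compared libraries in the fit (0.0277), of a range up to 0.358 over 16 alternatives. Pdgfra, the receptor tyrosine kinase used as a surface marker of fibroblasts, had 1 to 32 counts in a library and estimates of 0.65 (SE 0.42) and 0.78 (SE 0.48), not past the threshold.

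The differences between fractions resembled each other in the genotypes, both over the members and over all tested genes. Of the members called higher, 6 were called in both, which is 85.7% of the WT calls and 66.7% of the KO calls. The overlap of calls over all tested genes was not computed, so these shares have no background beside them. Mgp was called in WT alone and Col6a1, Lamb2 and Timp2 in KO alone, while none of the genes called lower was shared. Across the 36 members, the WT and KO log2 differences had Pearson's r of 0.691 and Spearman's rho of 0.729, and 30 had the same sign. Over all 6591 tested genes with a length these were 0.658 and 0.618, with the same sign in 4849. The 2 contrasts share no library, although genes of 1 library are not independent.

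None of the members was called for a difference between KO and WT. In Input, 0 of 36 members had an adjusted p under 0.05, beside 12 of all tested genes (0.182%), and 1 had an unadjusted p under 0.05 (7.11% of all genes did). In IP, 0 of 36 were called beside 6 of all genes (0.091%), and 6 had an unadjusted p under 0.05 (5.2% of all genes). DESeq2 and limma-voom also called 0 members in either fraction, as did every other alternative tried. The median log2 difference of the members, KO over WT, was 0.03 in Input and 0.14 in IP, beside -0.01 and 0.00 for all tested genes, with 20 and 23 of 36 estimates above 0. The Input median was 0.042 to 0.112 with any 1 library left out, the highest being without WT Input replicate 3, 0.14 with only the compared libraries in the fit, 0.091 with library totals, 0.056 with the length trend removed and -0.021 with no count filter. The IP median was 0.052 without WT IP replicate 1, 0.082 without WT IP replicate 2, 0.072 without KO IP replicate 3, 0.087 with the length trend removed and 0.25 with scaling by library totals, which raised the median of all genes by 0.117. The estimates had SE between 0.16 (Sparc in IP) and 0.72 (Lama2 in Input). Even estimates of several SE went uncalled, such as 0.47 (SE 0.16) for Gsn, the most counted member, and 0.78 (SE 0.23) for Htra3, both in IP. The limit was wider for the scarcer genes, so the lack of calls does not show that levels were equal.

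**Figure D4:**
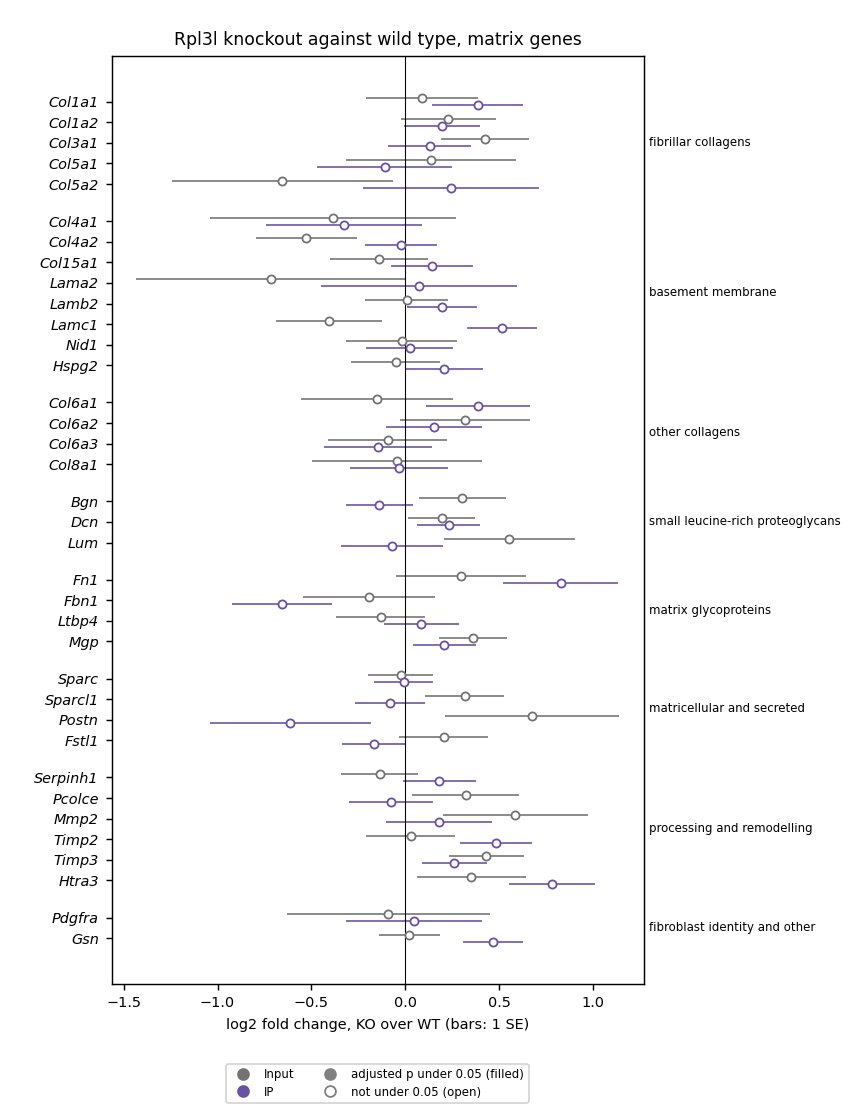
Log2 fold change between KO and WT for each of the 36 tested matrix genes (horizontal axis, bars 1 SE), by role, in Input (grey) and IP (purple). All points are open, since none had an adjusted p under 0.05, and the medians were 0.03 and 0.14.

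The members with the smallest p for KO against WT are named as values only. In Input, Timp3 had 194 to 247 CPM in KO and 158 to 167 in WT, a log2 difference of 0.43 (SE 0.20, adjusted p = 0.676). In IP, Htra3 had 80.0, 111 and 86.3 CPM in WT and 219, 129.5 and 136 in KO, a difference of 0.78 (SE 0.23, adjusted p = 0.517). Gsn had 0.47 (SE 0.16, adjusted p = 0.826) and Lamc1 0.51 (SE 0.19, adjusted p = 0.861). For both genes the KO IP libraries lay above the WT IP libraries. Fn1 had 0.83 (SE 0.31, adjusted p = 0.884), from 22.2, 27.4 and 24.7 CPM in WT to 44.3, 54.9 and 31.6 in KO, and Timp2 had 0.48 (SE 0.19, adjusted p = 0.910). Fbn1 was the 1 of the 6 with a negative estimate, -0.66 (SE 0.27, adjusted p = 0.920). Of the collagens, Col1a1, Col1a2 and Col3a1 had 0.09, 0.23 and 0.42 in Input and 0.39, 0.20 and 0.13 in IP, none past the threshold and all with overlapping libraries. Markers of red blood cells had medians of -1.19 in Input and -1.17 in IP with 0 of 5 called in either, and their part in the summed share was tested only by leaving globin genes out of the totals, as given above.

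The difference between genotypes of the IP to Input difference was likewise not called for any member, beside 6 of all tested genes (0.091%). In edgeR 1 of 36 had an unadjusted p under 0.05 (7.02% of all genes), and DESeq2 and limma-voom called 0. That gene was Lamc1, with 0.92 (SE 0.34, adjusted p = 0.568). Its KO libraries lay below the WT libraries in Input and above them in IP. The 8 basement membrane genes all had estimates above 0, beside 21 of the 36 members and 3338 of the 6596 tested genes. Their estimates ran from 0.04 to 0.92 with a median of 0.27. In Input, whose libraries enter this difference, 7 of the 8 had KO against WT estimates below 0. The median was 0.04 for the 36 members and 0.01 for all tested genes. Medians of other roles were -0.44 for small leucine-rich proteoglycans, -0.38 for matricellular and secreted proteins, -0.03 for fibrillar collagens and -0.02 for other collagens. They were 0.03 for matrix glycoproteins, 0.07 for processing and remodelling and 0.29 for fibroblast or connective tissue genes. No role was tested as a list.

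Other genes of matrix biology and of other cell types were read from lists chosen for this work, to place the members. Of 25 collagen synthesis and crosslinking genes, 15 were tested. In WT 0 were higher in IP and 2 were lower: Bmp1, the procollagen C-proteinase, by -1.997 (SE 0.45, adjusted p = 0.0034), and Ppib, a prolyl isomerase of the endoplasmic reticulum, by -0.72 (SE 0.23, adjusted p = 0.0364). In KO 1 was lower, Plod1, a lysyl hydroxylase, by -1.12 (SE 0.30, adjusted p = 0.0102). Of 26 matrix receptors, 16 were tested and 0 were called in WT. In KO 2 were higher, Sdc3 (a syndecan, 2.84, SE 0.86) and Itgb1 (the common beta1 integrin chain, 0.49, SE 0.16), and 1 was lower, Itga7 (the laminin-binding integrin chain of muscle, -0.77, SE 0.24).

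Of 22 TGF-beta pathway genes, the main pathway that drives collagen expression in fibroblasts, 15 were tested. Ski, a repressor of SMAD signalling, was higher in IP in both genotypes, by 1.66 (SE 0.30, adjusted p = 0.000355) and 1.61 (SE 0.32, adjusted p = 0.000824). It was the 1 call in WT, and in KO 2 were higher and 1 was lower. Tgfbr3 (betaglycan) was the other gene higher in KO, by 1.38 (SE 0.37). Of 45 other matrix genes, 23 were tested, and Agrn (agrin, -1.20, SE 0.37) and Col4a5 (-1.13, SE 0.37) were lower in WT and Eln (elastin, 1.22, SE 0.42) was higher in KO. Of 26 other proteases and inhibitors, 15 were tested, with Ctsl (cathepsin L) lower in WT by -0.59 (SE 0.17) and Mmp15 higher in KO by 1.23 (SE 0.28). Of 10 other fibroblast markers, 8 were tested, with medians of 0.34 and 0.39 and 1 call, Ddr2, a collagen receptor, higher in KO by 1.60 (SE 0.47, adjusted p = 0.0194). The lists differed in their medians, beside 0.35 in WT and 0.39 in KO for the members. They were 0.16 and -0.08 for collagen synthesis, 0.14 and 0.37 for matrix receptors, 0.45 and 0.39 for the TGF-beta pathway, 0.02 and -0.04 for other matrix genes, and 0.39 and 0.05 for other proteases and inhibitors.

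Markers of other cells also differed between fractions, and their part in the members' differences was not tested. Adipocyte markers, with 2 of 5 tested, were far lower in IP: Cfd (adipsin) by -3.35 (SE 0.44) in WT and -3.13 (SE 0.44) in KO, and Car3 by -3.54 (SE 0.64) and -3.64 (SE 0.71). The 5 summed to 118 to 702 CPM in the Input libraries and 15.4 to 70.4 in the IP libraries. The 10 endothelial markers were all tested and had medians of -0.33 and -0.42, with 2 higher and 2 lower in WT and 1 higher and 4 lower in KO. Egfl7 was lower by -1.97 (SE 0.22) and -1.79 (SE 0.23), while Flt1, a VEGF receptor, was higher by 0.81 (SE 0.22) and 1.35 (SE 0.24), and Fabp4 was lower in KO by -1.06 (SE 0.19). Their summed level was 2424 to 3750.4 CPM in Input and 1798 to 2388 in IP. Cardiomyocyte markers had medians of -0.02 and 0.09, with 1 higher and 1 lower of 9 in WT and 2 higher in KO, among them Ryr2 (0.55, SE 0.16) and Tnnt2 (0.64, SE 0.19). Of 5 epicardial and mesothelial markers 2 were tested, and Upk3b was lower in WT by -2.94 (SE 0.82). Smooth muscle and pericyte markers (6 of 8 tested), macrophage and leukocyte markers (6 of 8) and erythroid markers (5 of 5) had no calls, and 0 of 5 Schwann cell markers passed the filter. No gene of these lists was called for KO against WT in either fraction or for the difference between genotypes.

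**Figure D5:**
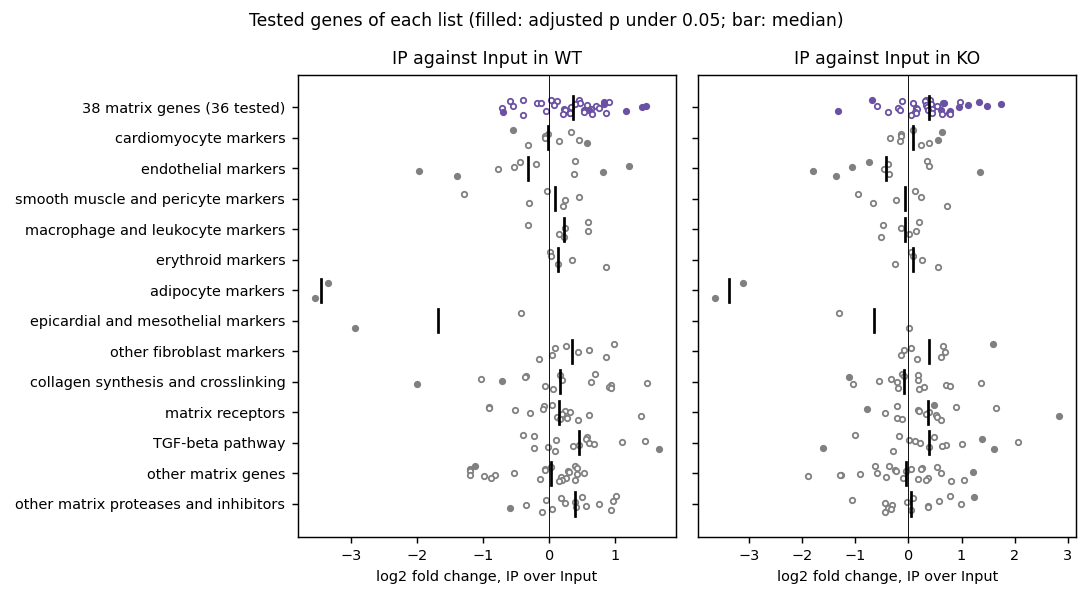
Log2 fold change between IP and Input (horizontal axis) of each tested gene in the 36 matrix genes and in each other list (vertical axis), in WT (left) and KO (right), with filled points for an adjusted p under 0.05 and bars at medians. The members' medians of 0.35 and 0.39 lie close to those of the other fibroblast markers at 0.34 and 0.39, while both adipocyte markers lie below -3.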

How the data were processed

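The deposited files hold 1 whole-number count per gene and library, made by the authors from nanopore direct cDNA reads. The submitters' processing notes name minimap2 2.14, DESeq2 1.34.0 and build GRCm38 without their roles, and the counting rule and use of strand are not given in the sources used here. Gene IDs were matched to GENCODE M21 without version (55141 of 55401; 38803 were 0 in every library), and 34 of the 38 genes also matched by version. Tcf21 and the heart muscle gene Actc1 were both listed at 0, so no limit is read from Tcf21.

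Counts were tested with edgeR 4.0.16 (R 4.3.3): filterByExpr (minimum count 10, minimum total 15; 6596 genes), scaling by TMM, which CPM levels use, and a quasi-likelihood fit of all 12 libraries with 1 mean per group (biological coefficient of variation 18.2%). There were 5 contrasts, with Benjamini-Hochberg adjustment within each and a threshold of 0.05. The SE was obtained from the estimate and its F statistic (absolute log2 fold change over the root of F). An exact rank test of 3 against 3 libraries cannot go below p = 0.1. The method was also tested on simulated data.

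The 38 genes, the other lists and the tests were chosen with earlier results of these data known. Members with values in every library were those called in at least 1 contrast (up to 4 per role) and the most counted of each role. Of other lists, up to 3 called genes with the smallest p were named. Alternatives in scaling and test were the DESeq2 size factor method as run in edgeR, library totals, the DESeq2 1.42.0 test and limma-voom (limma 3.58.1). Others were no filter, 30 counts in 3 libraries, the replicate number as a block and globin left out. The rest were the length trend removed (loess span 0.5), only the compared libraries, and each library left out in turn. Start-codon windows came from the GENCODE principal transcript of each gene. The window of 1 fibrillar collagen gene and the values of 1 listed gene are not reported here.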

Additional observations from a re-analysis of the deposited data

How the results depend on the processing

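No estimate of a member that was called reversed under any alternative tried. Members called for KO against WT and for the difference between genotypes stayed at 0 in all of them. For KO against WT in Input, all genes called were 77 with no count filter, 5 with 30 counts in 3 libraries and 4 to 17 with 1 library left out, and the members' median was 0.091 with library totals, 0.14 with only the compared libraries and 0.042 to 0.112 with 1 left out. In IP, all genes called were 55 with no filter, 11 with the DESeq2 test and 2 to 7 with 1 library left out, and the median was 0.25 with library totals and 0.052 to 0.172 with 1 left out. For IP against Input in WT, the median was 0.44 with library totals, 0.46 with no filter, 0.27 with the length trend removed and 0.33 to 0.40 with 1 library left out, with 5 to 6 members and 601 to 686 genes called in the latter. In KO, the median was 0.52, 0.48, 0.20 and 0.35 to 0.47 under the same alternatives, members called were 7 with the DESeq2 test and 5 to 9 with 1 library left out, and genes called 739 to 997. For the difference between genotypes, genes called were 37 with no filter, 1 with limma-voom and 1 to 8 with 1 library left out, and the members' median was -0.032 with the length trend removed and -0.012 to 0.135 with 1 left out. The mean summed share was 0.626% in WT Input and 0.928% in KO IP with globin left out, and 0.310%, 0.350%, 0.423% and 0.504% in WT Input, KO Input, WT IP and KO IP without Sparc, Sparcl1, Mgp, Gsn and Timp3. The cause of these shifts was not tested, except that fewer libraries or genes were used where the alternative says so.

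Libraries with the same replicate number did not deviate together (correlations from -0.115 to 0.0423), so the numbers were not taken to pair them. With the replicate number as a replicate block, 15 and 8 genes were called for KO against WT in Input and IP, 858 and 1009 for IP against Input in WT and KO, and 4 for the difference between genotypes. The members called under the replicate block were 8 of 8 in WT and 11 of 11 in KO.

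Depth limits the scarcer genes. KO Input replicate 3 had 169359 counts, so 3 counts there stand for 17.7 CPM, and Col5a1, Col5a2, Col4a1, Lama2, Col8a1, Postn, Pdgfra and Dpt, of which Col8a1 and Postn were called, were below that level in 1 or more libraries, as was Tcf21. P-values set each difference against a spread between libraries that was estimated over all 12 libraries together, with 3 in each group.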
